A study of Mus musculus with 60 samples.

Results

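Among the genes that transforming growth factor beta (TGFb) and the Hippo effector YAP are known to switch on in fibroblasts, 8 were followed through every RNA sequencing library of this series: Ccn1, Ccn2, Pmepa1, Tgfbi, Bhlhe40, Tgif1, Ankrd1 and Nox4. They were taken by symbol from a list of direct targets of the pathway, each symbol matched 1 of the 56980 gene identifiers in both count tables, and all 8 passed the filter on low counts in both. In D/KO cells reprogrammed for 4 days plus VC, Ankrd1, Tgfbi, Ccn2, Pmepa1, Ccn1 and Nox4 fell, to between 5.94% and 56.0% of day 0 plus VC, while Bhlhe40 and Tgif1 rose. Set against day 0 without VC, Ccn1 (-0.062 on the log2 scale, adjusted p = 0.776, edgeR) and Tgif1 (0.052, adjusted p = 0.781) were not called. The inhibitor A83-01 lowered 7 of the 8 in D/KO cells, with Tgfbi left at 13.2% of the control level, and raised Ccn1. In the WT 4F libraries whose treatment label reads TGFB, Ccn2 stood 29.2-fold above WT tail tip fibroblasts, and Tgfbi stood at 4.16% of them.

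The study turned on the reprogramming factors OCT4, SOX2, KLF4 and MYC for up to 4 days in mouse tail tip fibroblasts and asked whether blocking TGFb receptors has like effects. The reprogramming table held 36 libraries in 12 groups of 3: D/KO cells (genotype label 4FJ_ERCC1_(d/-), 1 truncated and 1 null allele of the DNA repair gene Ercc1, male, 8 weeks) and WT cells (4FJ_(+/-)_OCT4-GFP, female, 22 weeks), each sampled before doxycycline (2 µg/ml, day 0) and on days 2 and 4 of it, in medium alone or plus VC, which is ascorbic acid at 50 µg/ml together with CHIR99021, an inhibitor of the kinase GSK3, at 3 µM. The factors sit on a doxycycline-driven transgene that the day 0 cells carry too. The inhibitor table held 24 libraries in 8 groups of 3: control WT cells from tail tip and control WT cells from skin (both ERCC1_(+/+), female, 14 weeks), control D/KO cells (ERCC1_(d/-), female, 4 weeks, no factor transgene), the same D/KO cells given an inhibitor for 3 days (0.1 µM Repsox, 0.1 µM Vactosertib, 1 µM DMH-1 or 1 µM A83-01), and WT 4F cells of 22 weeks labelled TGFB. Repsox, Vactosertib and A83-01 block ALK5, the type I receptor for TGFb, DMH-1 blocks ALK2, a type I receptor for bone morphogenetic proteins (BMPs), and Vactosertib is described as acting on both. What was added to the libraries labelled TGFB and for how long is not given in the sources used here, and the control D/KO cells are described as non-treated. No group is labelled as given solvent alone, so a compound and its solvent cannot be told apart in comparisons with control cells. Genotype, line, sex and age change together between D/KO and WT cells of the reprogramming table and cannot be told apart, nor can genotype and age between control D/KO and control WT cells of the inhibitor table, which are all female. Since the sources describe only triplicates of a culture, p-values measure the spread between these samples, which may be technical.

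As background, TGFb binds a type II receptor that activates ALK5, which phosphorylates SMAD2 and SMAD3, and these enter the nucleus with SMAD4 and bind short DNA elements next to other factors. YAP and TAZ, held in the cytoplasm when the Hippo kinases are active, bind DNA through TEAD proteins, and many fibroblast genes are read by both routes. Ccn1 and Ccn2 encode secreted matricellular proteins, Tgfbi an adhesion protein of the matrix, Pmepa1 and Tgif1 inhibitors that dampen SMAD signaling, Bhlhe40 a transcriptional repressor of the circadian and hypoxia responses, Ankrd1 a nuclear and sarcomeric ankyrin repeat protein that is a much-used YAP readout, and Nox4 an oxidase that makes hydrogen peroxide in activated fibroblasts.

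The DNA before the annotated start of 2 members, Ccn1 and Ankrd1, is shown because they differ in the elements those factors are known to read. Whether such elements bear on how the genes moved was not tested. Each window is the 300 bases upstream of the start of the principal transcript in GENCODE M39 on GRCm39, the build of the count tables, read on the coding strand, with matches to GGAATG (TEAD) and CAGAC (SMAD) on either strand in capitals. 
Ccn1, chr3:145355739-145356038, minus strand: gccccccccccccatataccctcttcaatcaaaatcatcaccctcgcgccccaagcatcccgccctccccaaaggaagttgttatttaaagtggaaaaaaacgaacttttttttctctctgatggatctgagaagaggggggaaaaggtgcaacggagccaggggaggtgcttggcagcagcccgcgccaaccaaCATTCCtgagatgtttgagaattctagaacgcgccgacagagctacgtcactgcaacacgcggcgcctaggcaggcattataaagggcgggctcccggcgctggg
Ankrd1, chr19:36097507-36097806, minus strand: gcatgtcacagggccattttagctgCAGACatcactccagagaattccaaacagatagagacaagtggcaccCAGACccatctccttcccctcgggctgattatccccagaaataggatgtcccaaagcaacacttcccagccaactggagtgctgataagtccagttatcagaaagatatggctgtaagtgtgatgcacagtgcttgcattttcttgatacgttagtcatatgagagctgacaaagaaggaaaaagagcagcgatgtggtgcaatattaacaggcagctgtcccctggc

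The Ccn1 window held 1 TEAD match at 105 bases before the start (the reverse complement, CATTCC) and no SMAD match, and the Ankrd1 window 2 SMAD matches at 275 and 228 bases and no TEAD match. Windows of 7 members are described, and of the other 5 that of Tgfbi held 4 SMAD matches and that of Nox4 held 1, and those of Pmepa1, Bhlhe40 and Tgif1 held neither motif. Over 21757 promoter windows of the same length, 14.6% held the TEAD letters and 47.2% the SMAD letters. TGANTCA (AP-1, found in 7.4% of windows) and the CArG box of serum response factor (1.7%) were found in none of these 7 windows. A match describes letters and not binding, and these windows leave out distal elements.

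**Figure D1:**
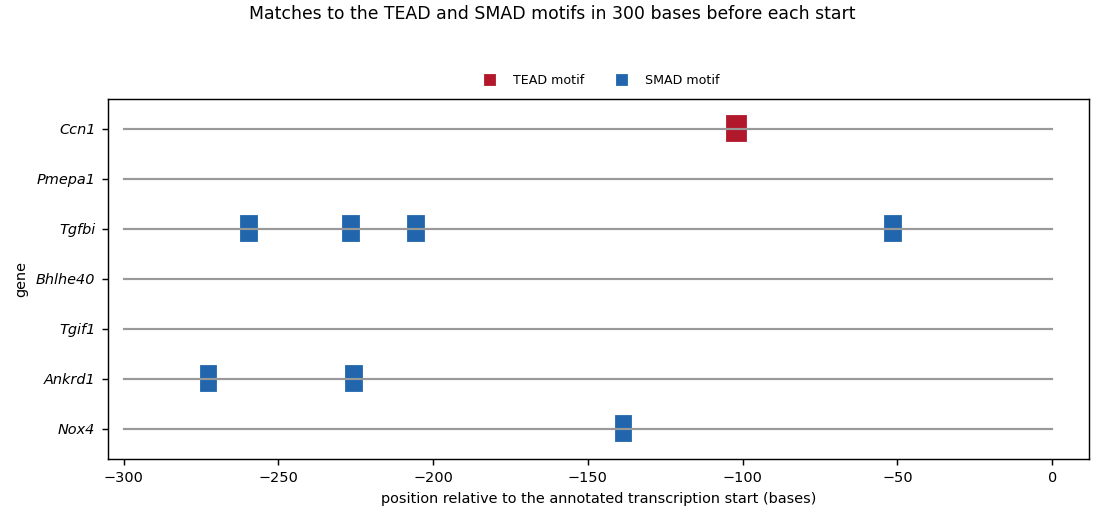
Position of matches to the TEAD and SMAD motifs in the 300 bases before the start of 7 of the genes (x axis, bases relative to the annotated start). Ccn1 carried 1 TEAD match, and SMAD matches lay in the windows of Tgfbi (4), Ankrd1 (2) and Nox4 (1).

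Reprogramming libraries held 16538374 to 18484951 counts and inhibitor libraries 17102639 to 30599138. Values below are CPM (the usual depth-scaled counts of edgeR, corrected for library composition by TMM), and differences are log2 fold changes ± SE from edgeR's two-sided quasi-likelihood test, called at a Benjamini-Hochberg adjusted p under 0.05 over 15832 or 15652 genes. Ercc1 had a mean of 9.68 to 14.98 CPM in the D/KO groups of the reprogramming table and 17.6 to 24.3 in the WT groups, but in the inhibitor table control D/KO cells were not below control WT cells (20.6 ± 0.28 against 18.04 ± 4.30 CPM, SD, n = 3), so that Ercc1 counts do not check the genotype label there. Each of 10 fibroblast markers was expressed in all groups. Their sum was 25010.0 to 31450.0 CPM in D/KO cells at day 0 plus VC and 15190.0 to 16570.0 at day 4 plus VC, and the sum of 10 keratinocyte markers was 4.60 to 5.93 at D/KO day 0 and 569 to 695 at day 4 plus VC, against 22.4 to 29.6 and 71.4 to 90.1 in WT cells. Endothelial markers summed to 803 to 895 CPM in D/KO cells at day 0 and 15.8 to 17.9 in WT cells at day 0. The D/KO sum was 396 to 442 at day 4, and it went from 291 to 340.0 at day 0 plus VC to 574 to 800.3 at day 4 plus VC. Of the 7 endothelial markers, 1 rose and 6 fell at D/KO day 4 (37.0% of all genes called). At day 4 plus VC, 3 rose and 3 fell (54.1%), with a median log2 fold change of -0.39, so the rise of the sum was not shared by the list. Immune markers summed to 12.8 to 13.4 CPM at D/KO day 0 and 75.6 to 146 at WT day 0, with Cd3e at 0 in all 60 libraries, and all 5 tested were lower in D/KO cells (median log2 fold change -2.48). The part of these shifts in the results below was not tested, and in such bulk samples fewer cells of a type and less RNA per cell cannot be told apart.

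Per kilobase of exon, Ccn1 was the most abundant member in 19 of the 20 groups, at 410.3 ± 62.4 RPKM (CPM per kilobase of exon, SD, n = 3) in D/KO cells at day 0, followed by Ccn2 at 188 ± 34.9 and Pmepa1 at 77.5 ± 6.28. Bhlhe40 (16.9 ± 4.18 RPKM) and Tgfbi (11.2 ± 0.769) were next, and Tgif1, Ankrd1 and Nox4 stood between 2.89 and 6.69 RPKM. The exception was the group labelled TGFB, in which Ccn2 reached 1862 ± 37.4 RPKM and Ccn1 610.0 ± 23.2. Ankrd1 reached the lowest counts of the 8, with 6 to 337 reads a library in the reprogramming table, so its low values carry the widest counting error. It was not the rarest in every group: in D/KO cells at day 0 plus VC it had 229 to 337 reads and Nox4 209 to 266. On GRCm39 the deposited coordinates are chr3:145352731-145355736 (minus strand) for Ccn1, chr10:24471340-24474581 (plus) for Ccn2, chr2:173066251-173118326 (minus) for Pmepa1, chr13:56757336-56787375 (plus) for Tgfbi, chr6:108637590-108643886 (plus) for Bhlhe40, chr17:71151200-71160541 (minus) for Tgif1, chr19:36089361-36097499 (minus) for Ankrd1 and chr7:86895304-87047918 (plus) for Nox4. An annotated long noncoding RNA overlaps 6 of the 8 genes, and without strand its reads and theirs cannot be told apart, but the counts given to these transcripts were small where the tables list them (at most 476 for Gm17501 beside Ccn1, and at most 26 for any other). The one beside Pmepa1, Gm74678, has no row in either table.

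The first comparison asks how the 8 genes moved when the factors were turned on. In D/KO cells, 6 members fell at day 2 and none rose, against 27.4% of all genes called in either direction, and at day 4, 5 fell and 1 rose (37.0% of all genes). With VC, 5 fell and 1 rose at day 2 (47.4%), and 6 fell and 2 rose at day 4 (54.1%), each against day 0 plus VC. In WT cells fewer were called: 1 fell and 2 rose at day 2 (10.6%), 2 fell and 2 rose at day 4 (24.5%), 1 fell and 2 rose at day 2 plus VC (27.5%), and 3 fell and 1 rose at day 4 plus VC (44.7%). The median log2 fold change of the 8 was -0.48, -0.52, -0.43 and -1.18 in the D/KO comparisons in that order, and -0.13, -0.17, -0.058 and 0.079 in the WT comparisons, while the median of all genes lay between -0.012 and 0.026. Doxycycline and day 0 libraries did not overlap for 5, 7, 6 and 8 members in D/KO cells, beside 40.4%, 40.8%, 53.0% and 54.4% of all genes, and for 4, 7, 4 and 5 in WT cells, beside 27.2%, 49.6%, 39.9% and 53.8%.

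**Figure D2:**
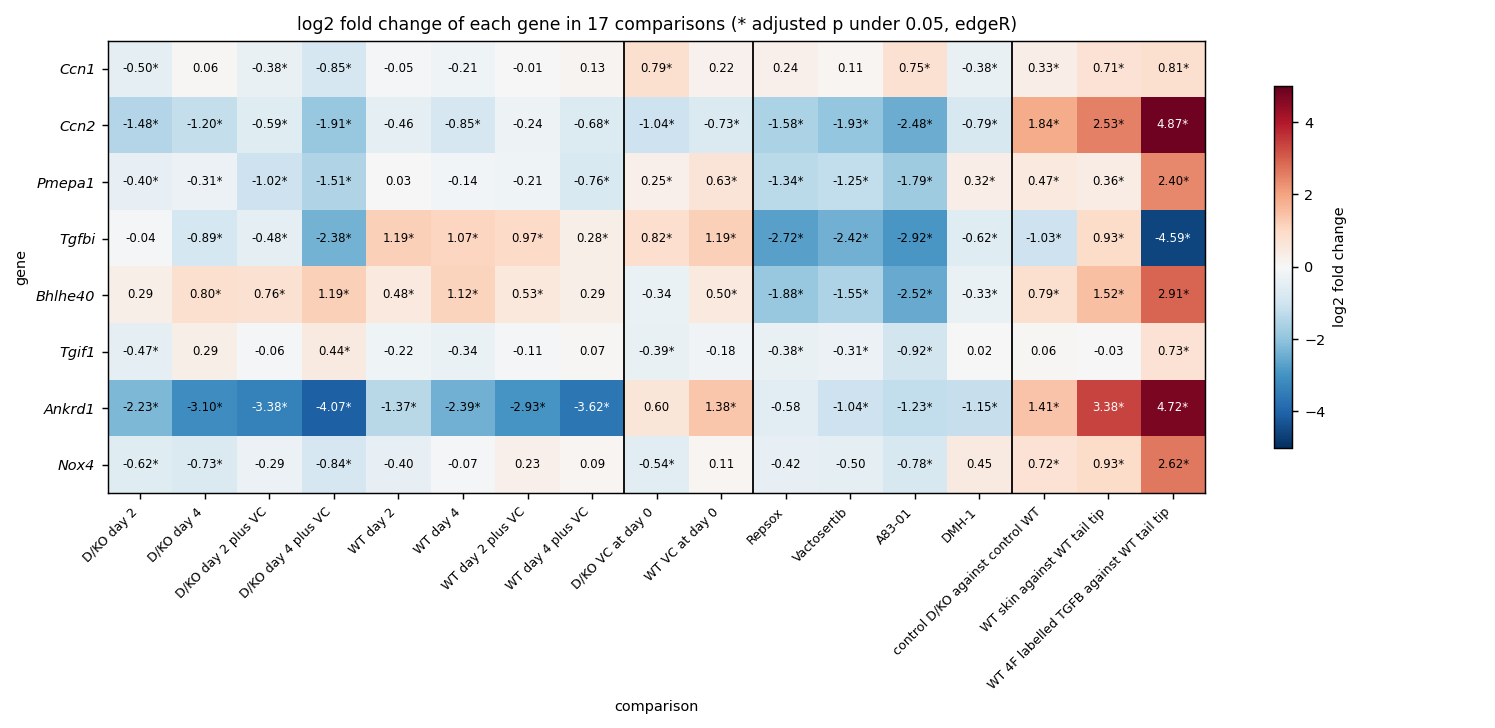
Heat map of the log2 fold change of each of the 8 genes (rows) in 17 comparisons (columns), printed in each cell, with an asterisk where the adjusted p of edgeR was under 0.05; red is higher and blue lower than the reference group. Ankrd1 was lower in all 8 reprogramming comparisons, Tgfbi was higher in WT and lower or not called in D/KO reprogramming, and the column of the libraries labelled TGFB runs from -4.59 for Tgfbi to 4.87 for Ccn2.

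Ankrd1 fell in each of the 8 reprogramming comparisons. D/KO cells at day 0 read 11.3, 10.1 and 16.9 CPM, at day 2 2.53, 2.03 and 3.60, and at day 4 1.25, 0.993 and 2.21. All 3 libraries of either later day lay below the lowest at day 0 (log2 fold change -2.23 ± 0.35, adjusted p = 4.23e-06 at day 2, edgeR, and log2 fold change -3.10 ± 0.37, adjusted p = 1.25e-08 at day 4). Plus VC, the libraries read 21.8, 17.2 and 19.2 CPM at day 0, 1.56, 2.13 and 1.90 at day 2 and 1.74, 1.17 and 0.527 at day 4, which left 5.94% of the starting level (log2 fold change -4.07 ± 0.39, adjusted p = 2.9e-11). In WT cells the level started lower, at 4.58, 3.38 and 3.83 CPM, and was 1.45, 2.57 and 0.495 at day 2 and 0.665, 1.11 and 0.442 at day 4 (log2 fold change -1.37 ± 0.38 and -2.39 ± 0.42). Plus VC it went from 11.4, 9.89 and 9.49 through 1.59, 1.26 and 1.16 to 0.349, 1.54 and 0.592 CPM, again with no overlap between day 0 and the later days (log2 fold change -2.93 ± 0.38 and -3.62 ± 0.40). The order of the 12 groups ran from 0.740 CPM at WT day 4 to 19.4 at D/KO day 0 plus VC, and neighbours within the 8 doxycycline groups overlapped. The call at WT day 2 rested on single libraries: without day 0 replicate 1 or day 2 replicate 3 the log2 fold change was -0.95 to -1.24, with an adjusted p of 0.0738 to 0.132. With only the 2 groups in the fit it was lost too (-1.37, adjusted p = 0.0548).

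Ccn2, also known as CTGF and a classic product of TGFb-treated fibroblasts, was the second member to fall in both genotypes. At D/KO day 0 it read 505, 459.9 and 651 CPM, at day 2 194, 185 and 199 and at day 4 235, 223 and 247. The day 2 and day 4 libraries lay within 185 to 199 and 223 to 247 CPM, below all day 0 libraries (log2 fold change -1.48 ± 0.18, adjusted p = 2.51e-08, edgeR, and log2 fold change -1.20 ± 0.18, adjusted p = 7.79e-07). Plus VC the level was already lower at day 0, 279.7, 278 and 228 CPM, and read 192, 222 and 108 at day 2 and 82.4, 68.2 and 57.9 at day 4 (log2 fold change -1.91 ± 0.18, adjusted p = 3.13e-11). The call at D/KO day 2 plus VC (log2 fold change -0.59 ± 0.18, adjusted p = 0.00552, edgeR) was lost without day 2 plus VC replicate 3, the lowest of its group (-0.34, adjusted p = 0.0946). In WT cells Ccn2 read 548, 425 and 414 CPM at day 0, 378, 314 and 314 at day 2 and 253, 263 and 254 at day 4. The groups did not overlap, and day 4 passed the test (log2 fold change -0.85 ± 0.17, adjusted p = 0.000349) while day 2 did not (log2 fold change -0.46 ± 0.17, adjusted p = 0.0838), although it did with DESeq2 (adjusted p = 0.0499), without the filter (0.00144) and with only the 2 groups in the fit (0.0381). WT cells plus VC read 308, 295 and 233 CPM at day 0, 278, 248 and 179.5 at day 2 and 156, 179.7 and 187 at day 4, a fall at day 4 (log2 fold change -0.68 ± 0.18, adjusted p = 0.00183). From highest to lowest group mean, D/KO day 0 (538 CPM) and WT day 0 overlapped, and D/KO day 4 plus VC (69.5 CPM) stood below all other groups with no overlap.

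Tgfbi, the adhesion protein named for its induction by TGFb, moved in opposite directions in the 2 lines. In WT cells it rose from 54.2, 57.5 and 50.9 CPM at day 0 to 131, 124 and 116 at day 2 and 114, 112 and 114 at day 4 (log2 fold change 1.19 ± 0.10, adjusted p = 1.68e-11, edgeR, and log2 fold change 1.07 ± 0.10, adjusted p = 7.15e-11). Each of these 6 doxycycline libraries lay above all 3 at day 0. In D/KO cells the level was 38.9, 42.9 and 44.5 CPM at day 0, 38.7, 42.9 and 41.1 at day 2 and 24.05, 24.3 and 19.6 at day 4, overlapping at day 2 (log2 fold change -0.042 ± 0.10, adjusted p = 0.802) and lower in all 3 libraries at day 4 (log2 fold change -0.89 ± 0.10, adjusted p = 3.44e-09). Plus VC, D/KO cells read 77.6, 83.5 and 62.5 CPM at day 0, 53.3, 54.1 and 52.6 at day 2 and 14.1, 15.3 and 13.7 at day 4, so that 19.3% of the level remained (log2 fold change -2.38 ± 0.10, adjusted p = 2.82e-20). WT cells plus VC read 127, 119 and 124 CPM at day 0, 256, 233 and 237 at day 2 and 168, 142 and 138 at day 4, with the highest group mean of the table at day 2 (242 CPM) and a smaller rise at day 4 (log2 fold change 0.28 ± 0.094, adjusted p = 0.0171). That last call was lost without day 0 plus VC replicate 2 or day 4 plus VC replicate 1 (0.19 to 0.25, adjusted p 0.0643 to 0.155) and without the filter on low counts (0.27, adjusted p = 0.0907).

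Pmepa1, whose product removes TGFb receptor and SMAD proteins in a negative feedback, fell in D/KO cells and less in WT cells. D/KO libraries read 372, 355 and 415 CPM at day 0, 289, 289 and 288 at day 2 and 314, 320.4 and 289.6 at day 4. Neither later group overlapped with day 0 (log2 fold change -0.40 ± 0.089, adjusted p = 0.000639, edgeR, and log2 fold change -0.31 ± 0.089, adjusted p = 0.00591), and the day 4 call was lost without day 0 replicate 3 (-0.24, adjusted p = 0.0537) or when only the 2 groups entered the fit (-0.28, adjusted p = 0.131). Plus VC, the D/KO libraries read 374, 485 and 498 CPM at day 0, 230.2, 232 and 206 at day 2 and 155, 162 and 159 at day 4, 3 levels with no overlap (log2 fold change -1.02 ± 0.09, adjusted p = 8.05e-12, and log2 fold change -1.51 ± 0.091, adjusted p = 1.98e-16). WT libraries stayed within 250.0 to 297 CPM over days 0, 2 and 4 without VC, and neither change passed the test (log2 fold change 0.033 ± 0.089 and -0.14 ± 0.089). Plus VC they read 433, 427 and 464 CPM at day 0, 414, 355 and 377 at day 2 and 265, 262 and 256 at day 4, with a fall at day 4 (log2 fold change -0.76 ± 0.089, adjusted p = 1.04e-08), which was not called against day 0 without VC (-0.12, adjusted p = 0.289). The lower level at day 2 plus VC was called by DESeq2 (-0.23, adjusted p = 0.0263), with at least 10 counts in every library (-0.23, adjusted p = 0.0398) and without day 2 plus VC replicate 1 (-0.27, adjusted p = 0.0469), though not by edgeR over all libraries.

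Bhlhe40 rose with doxycycline in both lines. D/KO cells read 64.7, 71.6 and 102 CPM at day 0, 91.8, 93.3 and 106 at day 2 and 145, 151 and 118 at day 4. Day 2 overlapped with day 0 and day 4 did not (log2 fold change 0.29 ± 0.14, adjusted p = 0.122, edgeR, and log2 fold change 0.80 ± 0.14, adjusted p = 1.13e-05). Plus VC the D/KO libraries read 61.1, 71.1 and 56.7 CPM at day 0, 109, 108 and 102 at day 2 and 154, 149 and 126 at day 4, higher at each step (log2 fold change 0.76 ± 0.14, adjusted p = 2.38e-05, and log2 fold change 1.19 ± 0.14, adjusted p = 4.3e-09). WT cells read 51.9, 40.8 and 43.3 CPM at day 0, 70.6, 61.8 and 57.6 at day 2 and 103, 95.5 and 95.7 at day 4, also without overlap (log2 fold change 0.48 ± 0.14 and 1.12 ± 0.14). With VC they read 60.3, 66.6 and 65.0 CPM at day 0, 116, 81.7 and 80.3 at day 2 and 72.8, 86.5 and 75.1 at day 4, and the difference passed the test at day 2 (log2 fold change 0.53 ± 0.14, adjusted p = 0.0032) but not at day 4 (log2 fold change 0.29 ± 0.14, adjusted p = 0.0888). The WT calls at day 2 depended on single libraries: without VC the call was lost without day 0 replicate 2 or 3 or day 2 replicate 1 (0.40 to 0.45, adjusted p 0.0808 to 0.0967), and plus VC without day 2 replicate 1 (0.34, adjusted p = 0.0765). At D/KO day 2 a rise was called without day 0 replicate 3 (0.51, adjusted p = 0.00582). At WT day 4 plus VC a rise was called with only the 2 groups in the fit (0.29, adjusted p = 0.0213).

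Ccn1, also known as CYR61, fell in D/KO cells in 3 of 4 comparisons, all but day 4 without VC, and none of its 4 WT changes passed the test. D/KO libraries read 941, 852 and 692 CPM at day 0, 645, 640.5 and 473 at day 2 and 918, 848 and 819 at day 4. Day 2 lay below day 0 (log2 fold change -0.50 ± 0.16, adjusted p = 0.0185, edgeR) and day 4 overlapped with it (log2 fold change 0.057 ± 0.16, adjusted p = 0.822). Plus VC, D/KO libraries read 1521, 1302 and 1477 CPM at day 0, 1340.5, 1094 and 861 at day 2 and 915, 698 and 768 at day 4 (log2 fold change -0.38 ± 0.16, adjusted p = 0.0491 at day 2, where 1 library overlapped, and log2 fold change -0.85 ± 0.16, adjusted p = 3.2e-05 at day 4). WT libraries read 991 to 1334 CPM without VC and 1071 to 1662 with it, and their 4 log2 fold changes lay between -0.21 and 0.13, with adjusted p of 0.377 or more (WT day 4 was called, at -0.20 and adjusted p = 0.0152, with only the 2 groups in the fit). The D/KO call at day 2 was lost without day 0 replicate 1 or 2 or day 2 replicate 3 (-0.48 to -0.36, adjusted p 0.0514 to 0.141). At day 2 plus VC it was lost without day 0 plus VC replicate 1 or 3 or day 2 plus VC replicate 2 or 3 (-0.38 to -0.23, adjusted p 0.0986 to 0.292) and when only the 2 groups entered the fit (-0.38, adjusted p = 0.0534). Set against day 0 without VC, D/KO Ccn1 was higher at day 2 plus VC (0.41, adjusted p = 0.0371, edgeR). On that baseline the fall at day 4 plus VC was not called (-0.062, adjusted p = 0.776).

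Nox4 fell in 3 of the 4 D/KO comparisons with day 0, and Tgif1 had the narrowest range of the 8 over the table. Nox4 read 21.7, 27.6 and 24.2 CPM at D/KO day 0, 13.8, 16.4 and 17.4 at day 2 and 15.9, 13.7 and 14.6 at day 4, and every later library lay below day 0 (log2 fold change -0.62 ± 0.14, adjusted p = 0.000609, edgeR, and log2 fold change -0.73 ± 0.14, adjusted p = 4.68e-05). Plus VC it read 17.2, 15.7 and 17.4 CPM at day 0 and 9.30, 9.14 and 9.74 at day 4 (log2 fold change -0.84 ± 0.14, adjusted p = 6.69e-06). In the 18 WT libraries Nox4 lay between 5.55 and 12.7 CPM, and no WT reprogramming comparison passed the test. Without day 2 replicate 1, a fall at WT day 2 was called (-0.53, adjusted p = 0.0286). Tgif1, a homeodomain corepressor, lay between 22.1 and 47.4 CPM over the table. It fell at D/KO day 2 (log2 fold change -0.47 ± 0.14, adjusted p = 0.0107), although day 0 replicate 1 (28.1 CPM) lay within the day 2 range of 25.0 to 28.5, and it rose at D/KO day 4 plus VC (log2 fold change 0.44 ± 0.14, adjusted p = 0.00838). The first call was lost without day 0 replicate 2 or 3 or day 2 replicate 2 (-0.41 to -0.37, adjusted p 0.0621 to 0.0809), the second without day 0 plus VC replicate 3 (0.36, adjusted p = 0.0559), and a rise at D/KO day 4 was called without day 0 replicate 3 (0.39, adjusted p = 0.0478). With only the 2 groups in the fit, a fall of Tgif1 at WT day 4 was called (-0.32, adjusted p = 0.00555).

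**Figure D3:**
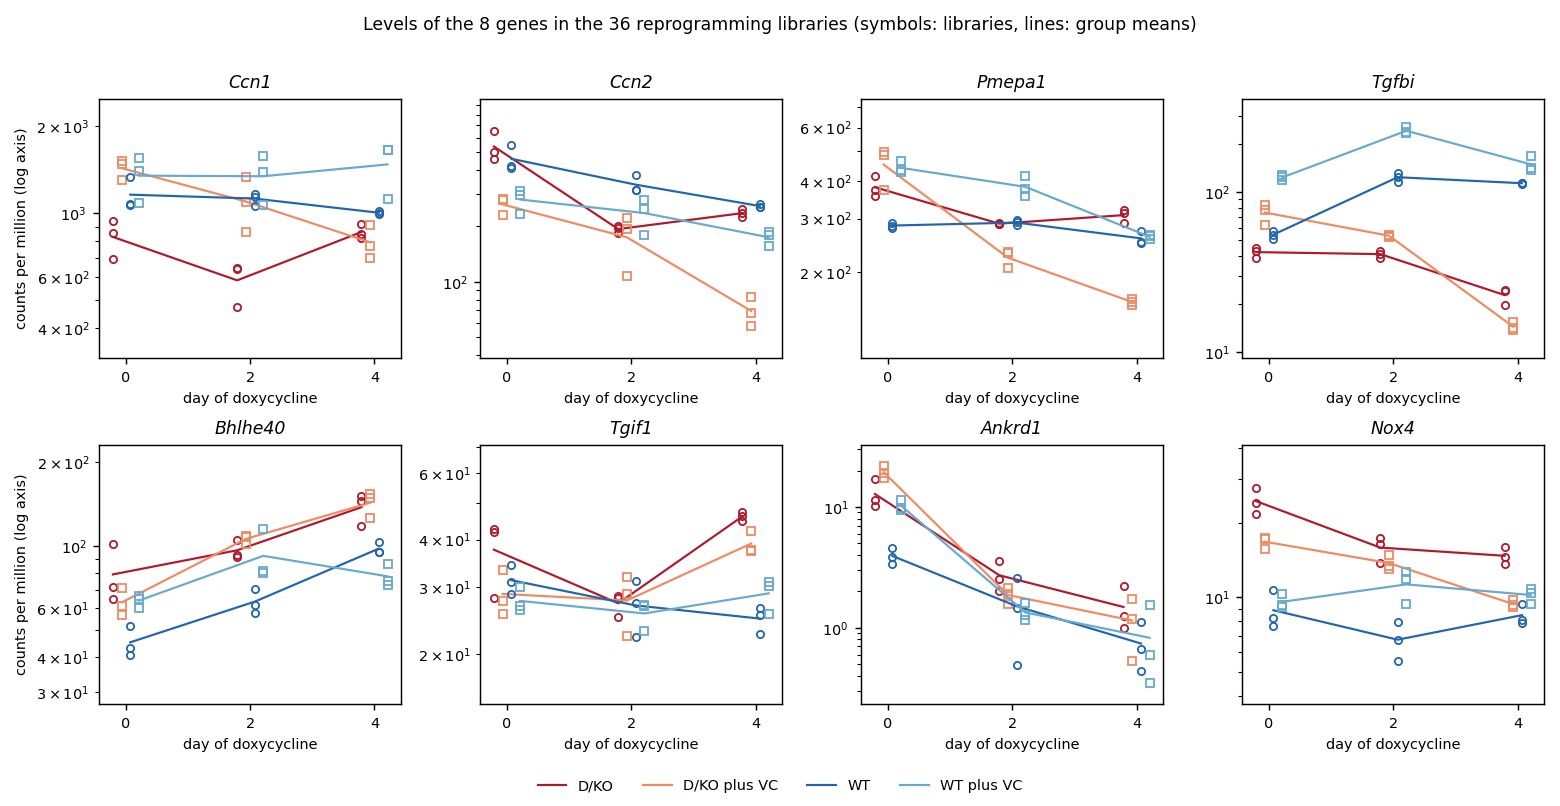
Level of each of the 8 genes (y axis, CPM on a log axis) against the day of doxycycline (x axis) in the 36 reprogramming libraries, with a symbol per library, shifted sideways by series, and lines through the means of 3. Ankrd1 dropped in all 4 series, the Tgfbi series of WT and D/KO cells ran apart, and Ccn2 and Pmepa1 were lowest in D/KO cells at day 4 plus VC (57.9 to 82.4 and 155 to 162 CPM).

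Between day 2 and day 4 the calls were 4 of 8 members in D/KO cells (9.57% of all genes), 7 in D/KO cells plus VC (15.6%), 1 in WT cells (21.5%) and 2 in WT cells plus VC (20.1%). Tgfbi fell between these days in D/KO cells (-0.85 ± 0.10 without VC and -1.89 ± 0.10 with it, log2 fold change) and fell from its day 2 peak in WT cells plus VC (log2 fold change -0.70 ± 0.094, adjusted p = 1.73e-06, edgeR). Ccn1 and Tgif1 rose in D/KO cells without VC (0.56 ± 0.16 and 0.76 ± 0.14), and Ccn2, Pmepa1 and Nox4 fell in D/KO cells plus VC (-1.32 ± 0.18, -0.49 ± 0.09 and -0.55 ± 0.14). Bhlhe40 rose in D/KO cells (0.51 ± 0.14, and 0.43 ± 0.14 plus VC) and was the 1 member called in WT cells (log2 fold change 0.63 ± 0.14, adjusted p = 0.0016). Ankrd1 passed the test in none of the 4 (log2 fold change -1.03 to -0.68). In D/KO cells the Bhlhe40 call was lost without day 2 or day 4 replicate 1 or 2 (0.44 to 0.49, adjusted p 0.0536 to 0.0707) and the Ccn1 call without day 2 replicate 3 or day 4 replicate 1 (0.42 to 0.51, adjusted p 0.101 to 0.185). Plus VC, Bhlhe40 was not called without any 1 library other than day 4 replicate 3 (0.37 to 0.44, adjusted p 0.0607 to 0.12), Ccn1 without day 2 replicate 1 or 2 or day 4 replicate 2 or 3 (-0.47 to -0.31, adjusted p 0.091 to 0.305), and Tgif1 without day 2 replicate 3 or day 4 replicate 2 (0.36 to 0.44, adjusted p 0.0664 to 0.124). In WT cells Nox4 was called without day 2 replicate 1 (0.47, adjusted p = 0.0371) and Ankrd1 without day 2 replicate 3 (-1.44, adjusted p = 0.0216). In WT cells plus VC Ccn2 was called without day 2 plus VC replicate 3 (-0.60, adjusted p = 0.0238). Without the filter on low counts, Ankrd1 was called in D/KO cells (-0.88, adjusted p = 0.0474) and WT cells (-1.03, adjusted p = 0.0272) and Ccn2 in WT cells (-0.39, adjusted p = 0.0102) and WT cells plus VC (-0.44, adjusted p = 0.00237). With only the 2 groups in the fit, Ccn2 was again called in both (-0.37 and -0.41, adjusted p = 0.0233 and 0.0297). The Ccn1 call in D/KO cells plus VC was lost in that fit (-0.47, adjusted p = 0.051) and with at least 10 counts in every library (-0.45, adjusted p = 0.0606).

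VC alone, at day 0 without doxycycline, moved 6 members in D/KO cells (26.1% of all genes) and 5 in WT cells (29.4%). Ccn2 fell in both (D/KO -1.04 ± 0.18, WT -0.73 ± 0.17, log2 fold change) and Tgfbi and Pmepa1 rose in both (Tgfbi 0.82 ± 0.10 and 1.19 ± 0.10, Pmepa1 0.25 ± 0.089 and 0.63 ± 0.089). Pmepa1 in D/KO cells overlapped between the groups, and its call (adjusted p = 0.0354, edgeR) was lost without day 0 replicate 1 or 2 or day 0 plus VC replicate 2 or 3 (0.17 to 0.23, adjusted p 0.0924 to 0.204). In D/KO cells Ccn1 also rose (log2 fold change 0.79 ± 0.16, adjusted p = 0.00027), and Nox4 and Tgif1 fell (-0.54 ± 0.14 and -0.39 ± 0.14, the latter not called without day 0 replicate 2 or 3 or day 0 plus VC replicate 1 or 3, -0.36 to -0.29, adjusted p 0.126 to 0.202). In WT cells Ankrd1 and Bhlhe40 rose (log2 fold change 1.38 ± 0.34, adjusted p = 0.0017, and log2 fold change 0.50 ± 0.14, adjusted p = 0.00629). The reprogramming changes plus VC thus depended on the baseline: set against day 0 without VC, Ccn1 and Tgfbi stood higher at D/KO day 2 plus VC (0.41 and 0.34) and Pmepa1 higher at WT day 2 plus VC (0.43), and the falls of Ccn1 at D/KO day 4 plus VC and of Pmepa1 at WT day 4 plus VC and the rise of Tgif1 at D/KO day 4 plus VC were not called. On that baseline the falls of Tgif1 (-0.45) and Nox4 (-0.83) at D/KO day 2 plus VC and of Ccn2 at WT day 2 plus VC (-0.98) and the rise of Bhlhe40 at WT day 4 plus VC (0.79) were called. Markers of other cells moved with VC alone: all 7 endothelial markers fell in D/KO cells, from a sum of 803 to 895 CPM to 291 to 340.0, muscle markers went from 44.5 to 67.1 to 8.59 to 24.2, and 6 of 10 fibroblast markers rose in WT cells, from 16890.0 to 17770.0 to 24950.0 to 27990.0, and their part in the result was not tested. The VC call of Pmepa1 in D/KO cells was also lost without the filter (0.24, adjusted p = 0.18) and with only the 2 groups in the fit (0.27, adjusted p = 0.232), and that of Tgif1 in the latter (-0.37, adjusted p = 0.165). A fall of Bhlhe40 in D/KO cells was called without the filter (-0.34, adjusted p = 0.0413) and without day 0 replicate 1 or day 0 plus VC replicate 2 (-0.46 to -0.43, adjusted p 0.0186 to 0.0371), and a rise of Ankrd1 with only the 2 groups in the fit (0.63, adjusted p = 0.0423).

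Whether VC altered the response to doxycycline was tested as the difference between the changes with and without it. At day 2 this called 3 members in D/KO cells (14.5% of all genes) and 0 in WT cells (5.52%, edgeR), where 2 of the 8 had an unadjusted p under 0.05, as had 2835 of 15832 genes, and DESeq2 called 2 (Ankrd1 -1.56, adjusted p = 0.0374, and Nox4 0.63, adjusted p = 0.0478). At day 4 it called 4 in D/KO cells (26.9%) and 3 in WT cells (15.3%), and all 7 were lower changes with VC. In D/KO cells at day 4 these were Tgfbi (-1.48 ± 0.14), Pmepa1 (-1.20 ± 0.13), Ccn1 (-0.91 ± 0.23) and Ccn2 (-0.72 ± 0.25, adjusted p = 0.0283, edgeR, lost without replicate 1 or 2 of day 0 with or without VC, day 4 replicate 3 or day 4 plus VC replicate 2 or 3, at -0.70 to -0.60 and adjusted p 0.0536 to 0.0921). In WT cells they were Tgfbi (-0.79 ± 0.13), Pmepa1 (-0.62 ± 0.13) and Bhlhe40 (-0.83 ± 0.20). These differences include the shift by VC at day 0. Mean D/KO Ccn1 was 794 CPM at day 4 with VC and 862 without, from 1433 and 828 at day 0. WT Pmepa1 was 261 and 258, from 441 and 284, and WT Tgfbi 149 and 114, from 123 and 54.2. D/KO Tgfbi, Pmepa1 and Ccn2 and WT Bhlhe40 had lower means at day 4 with VC than without. At day 2 in D/KO cells the Ccn2 difference was positive (log2 fold change 0.89 ± 0.25, adjusted p = 0.0113) and those of Pmepa1 and Tgfbi were negative (-0.62 ± 0.13 and -0.44 ± 0.14). The Tgfbi call there was lost without day 0 replicate 1, day 2 replicate 2 or 3, day 0 plus VC replicate 1 or 2 or day 2 plus VC replicate 1 or 3 (-0.43 to -0.35, adjusted p 0.0564 to 0.0973) and the Ccn2 call without D/KO day 0 replicate 3 or day 2 plus VC replicate 2 (0.68 to 0.73, adjusted p 0.0513 to 0.0684). The Tgfbi call was lost as well without the filter (-0.44, adjusted p = 0.118) and with only the compared groups (-0.47, adjusted p = 0.0531), while an Ankrd1 difference was called in both of these fits (-1.14 and -1.18, adjusted p = 0.0259 and 0.029). Without day 0 replicate 1, D/KO differences were called for Bhlhe40 (0.60, adjusted p = 0.0367) and Tgif1 (0.58, adjusted p = 0.0344) at day 2 and for Bhlhe40 at day 4 (0.51, adjusted p = 0.0494). WT differences at day 2 were called for Nox4 without replicate 1 of day 2 with or without VC (0.75 to 0.77, adjusted p 0.0267 to 0.0328) and for Ankrd1 without day 2 replicate 3 (-1.98, adjusted p = 0.0172) or without the filter (-1.56, adjusted p = 0.00481). At WT day 4 Ankrd1 was called without day 4 plus VC replicate 2 (-2.02, adjusted p = 0.0417) and Tgif1 with only the compared groups (0.41, adjusted p = 0.0493).

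The 2 lines differed at the start and in their change. At day 0 without VC, D/KO cells had more Ankrd1, Nox4, Bhlhe40 and Pmepa1 than WT cells and less Ccn1 and Tgfbi (43.2% of all genes were called). Nox4 read 21.7 to 27.6 CPM in D/KO cells against 7.68 to 10.7 in WT cells (log2 fold change 1.46 ± 0.14, adjusted p = 1.97e-10, edgeR) and Ankrd1 10.1 to 16.9 against 3.38 to 4.58 (log2 fold change 1.70 ± 0.33, adjusted p = 9e-05). The Ccn1 call (-0.49 ± 0.16) was lost without D/KO day 0 replicate 3 or WT day 0 replicate 1 (adjusted p 0.103 to 0.104), and a Tgif1 difference was called without D/KO day 0 replicate 1 (0.44, adjusted p = 0.0115). The change of D/KO cells minus that of WT cells was called for 3 members at day 2 (6.54% of all genes), 2 at day 2 plus VC (13.9%), 3 at day 4 (14.3%) and 6 at day 4 plus VC (29.4%). Tgfbi was called in all 4, by -1.24 ± 0.14, -1.45 ± 0.14, -1.96 ± 0.14 and -2.65 ± 0.14 on the log2 scale, and Pmepa1 in all but day 4, though its call at day 2 was lost in 7 of the 12 fits without 1 library (-0.44 to -0.37, adjusted p 0.0589 to 0.0943). For Ankrd1, which fell most, the difference passed the test in none of the 4 (-0.86 to -0.44, adjusted p from 0.39 to 0.654). The Pmepa1 call at day 2 was lost too without the filter (-0.43, adjusted p = 0.144) and with only the compared groups (-0.42, adjusted p = 0.0596), and the Nox4 call at day 4 without the filter (-0.66, adjusted p = 0.0891). A Nox4 difference at day 2 plus VC was called without WT day 2 plus VC replicate 1 (-0.64, adjusted p = 0.04).

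The inhibitor table asks how the members respond when TGFb or BMP receptors are blocked in D/KO cells that carry no factors. Against control D/KO cells, 5 of 8 members fell with Repsox and none rose (20.7% of all genes called), 6 fell with Vactosertib and none rose (18.1%), 7 fell and 1 rose with A83-01 (27.5%), and 5 fell and 1 rose with DMH-1 (7.25%). The control and treated libraries did not overlap for 8, 8, 8 and 7 members, beside 35.9%, 41.6%, 48.3% and 31.4% of all genes. The median log2 fold change of the 8 was -0.96 with Repsox, -1.15 with Vactosertib, -1.51 with A83-01 and -0.36 with DMH-1, and that of all genes lay between -0.0017 and 0.018. Fibroblast markers summed to 21610.0 to 24410.0 CPM in control D/KO cells, 14870.0 to 16860.0 with Repsox, 16340.0 to 17460.0 with Vactosertib, 17350.0 to 18700.0 with DMH-1 and 14730.0 to 15070.0 with A83-01. Of the 10, 2 rose and 2 fell with Repsox and with Vactosertib (median log2 fold change -0.11 and -0.09). With DMH-1 1 rose and 1 fell, and with A83-01 2 rose and 3 fell. Col5a1 read 5938 to 7264 CPM in control cells and 1238 to 2201 with Repsox, while Dcn read 413.5 to 505 and 699 to 731. Endothelial markers summed to 372 to 411 CPM in control cells and 168 to 214 with A83-01, and melanocyte and Schwann markers to 8.09 to 10.8 in control cells, 18.7 to 20.6 with Repsox, 15.5 to 19.4 with Vactosertib, 12.8 to 16.4 with DMH-1 and 33.2 to 40.8 with A83-01. Muscle markers summed to 22.3 to 25.0 in control cells and 11.1 to 13.8 with DMH-1. The part of these markers in the result was not tested.

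Tgfbi, Bhlhe40, Ccn2 and Pmepa1 fell with all 3 ALK5 inhibitors. Control D/KO cells read 96.8, 112 and 105 CPM of Tgfbi, and the treated cells 15.5, 14.7 and 17.3 with Repsox, 16.2, 19.4 and 23.1 with Vactosertib and 12.8, 15.2 and 13.5 with A83-01. The highest of these 9 libraries was at 23.1 CPM and the lowest control at 96.8 (log2 fold change -2.72 ± 0.13, adjusted p = 7.87e-12, edgeR, for Repsox, -2.42 ± 0.13 for Vactosertib and -2.92 ± 0.13 for A83-01). Ccn2 read 701, 667 and 599 CPM in control cells and 216, 253 and 189 with Repsox, 177, 167 and 174 with Vactosertib and 124, 113 and 116 with A83-01, which left 33.4%, 26.3% and 17.97% (log2 fold change -1.58 ± 0.15, -1.93 ± 0.15 and -2.48 ± 0.16). Bhlhe40, which had risen with doxycycline, read 89.2, 90.0 and 86.0 CPM in control cells and 24.8, 21.4 and 25.8 with Repsox, 30.7, 28.2 and 31.9 with Vactosertib and 15.4, 15.3 and 15.4 with A83-01. It thus stood at 17.4% of the control with A83-01 (log2 fold change -2.52 ± 0.095, adjusted p = 8.68e-14). Pmepa1 read 347, 345 and 335 CPM in control cells and 136, 127 and 141 with Repsox, 139, 151 and 141 with Vactosertib and 100.1, 94.1 and 102 with A83-01 (log2 fold change -1.34 ± 0.089, -1.25 ± 0.089 and -1.79 ± 0.09).

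Tgif1, Ankrd1 and Nox4 moved less. Ankrd1 read 9.33, 8.93 and 8.91 CPM in control D/KO cells, 6.17, 6.29 and 5.69 with Repsox, 4.89, 4.12 and 4.18 with Vactosertib and 3.89, 4.24 and 3.44 with A83-01, and passed the test with Vactosertib (log2 fold change -1.04 ± 0.22, adjusted p = 0.00175, edgeR) and A83-01 (-1.23 ± 0.22) but not with Repsox (log2 fold change -0.58 ± 0.21, adjusted p = 0.0588), where it was called by DESeq2 (adjusted p = 0.0389), with only the 2 groups in the fit (0.0236) and with 18 libraries (0.0489). Tgif1 stood at 77.0%, 80.7% and 52.8% of the control with Repsox, Vactosertib and A83-01 (adjusted p = 0.0119, 0.0418 and 7.81e-07). Its Repsox call was lost without control D/KO replicate 1 (adjusted p = 0.066), its Vactosertib call without any 1 control library or without Vactosertib replicate 2 or 3 (-0.34 to -0.25, adjusted p 0.0611 to 0.192), the latter also with DESeq2 size factors (adjusted p = 0.0512) and with 18 libraries in the fit (0.0622), and both without the filter (0.145 and 0.312). Nox4 fell with A83-01 (log2 fold change -0.78 ± 0.21, adjusted p = 0.00742) and was at 74.7% and 70.5% of the control with Repsox and Vactosertib, short of the test. The Vactosertib difference of Nox4 was called with only the 2 groups in the fit (-0.51, adjusted p = 0.0378).

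Ccn1 went against the set. It read 849.9, 895 and 916 CPM in control D/KO cells and 1460.2, 1517 and 1500.0 with A83-01, a rise to 168% of the control (log2 fold change 0.75 ± 0.091, adjusted p = 1.79e-06, edgeR). With Repsox the libraries read 1040.4, 1066 and 1037 CPM and with Vactosertib 925, 989 and 960.0. All 6 lay above the highest control library, but neither difference passed edgeR's test (log2 fold change 0.24 ± 0.09, adjusted p = 0.0663, and log2 fold change 0.11 ± 0.09, adjusted p = 0.474), and the first was called by DESeq2 (adjusted p = 0.0103), with a stricter filter (0.0388) and with 18 libraries (0.0443). Ccn1 is listed as a TGFb target and did not fall with any of the 3 ALK5 inhibitors.

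DMH-1, the ALK2 inhibitor, lowered Ccn2, Tgfbi, Ankrd1, Ccn1 and Bhlhe40 and raised Pmepa1. Ccn2 read 383, 368 and 386 CPM (log2 fold change -0.79 ± 0.15, adjusted p = 0.00158, edgeR), Tgfbi 62.5, 68.1 and 73.5 (log2 fold change -0.62 ± 0.12, adjusted p = 0.00265) and Ankrd1 2.63, 4.72 and 4.93 (log2 fold change -1.15 ± 0.22, adjusted p = 0.00177), all below control libraries. Ccn1 (660.4, 629 and 752 CPM) and Bhlhe40 (69.2, 68.2 and 72.8) were also lower (-0.38 ± 0.091 and -0.33 ± 0.089, log2 fold change), and Pmepa1 was higher, at 442, 449.6 and 387 CPM (log2 fold change 0.32 ± 0.088, adjusted p = 0.0299). These 3 calls were all lost without the filter on low counts (adjusted p 0.151 to 0.294), and without control D/KO replicate 2 or 3 or DMH-1 replicate 1 or 2 (Ccn1 -0.38 to -0.33, Bhlhe40 -0.35 to -0.32, Pmepa1 0.27 to 0.33, adjusted p 0.05 to 0.147). The last 2 were lost without control D/KO replicate 1 too. Tgif1 did not pass the test (log2 fold change 0.02 ± 0.10, adjusted p = 0.96), nor did Nox4 (log2 fold change 0.45 ± 0.21, adjusted p = 0.24).

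Doses match within 2 pairs of compounds. At 1 µM, A83-01 gave lower Pmepa1, Tgfbi, Bhlhe40, Ccn2, Nox4 and Tgif1 than DMH-1 and higher Ccn1, 7 of 8 members (20.5% of all genes). The largest difference was that of Tgfbi (log2 fold change -2.30 ± 0.13, adjusted p = 8.41e-11, edgeR), and that of Ccn1 was 1.13 ± 0.091. Ankrd1 was the exception, with a log2 difference of -0.078 and a 95% interval of -0.54 to 0.39. At 0.1 µM, Repsox and Vactosertib differed in 0 members by edgeR and in 0 by DESeq2, with 0.0% of all genes called by edgeR and 6 genes by DESeq2, although 4 members and 347 genes had an unadjusted p under 0.05. The 4 were Bhlhe40 (-0.33, interval -0.52 to -0.14), Tgfbi (-0.31, -0.57 to -0.042), Ccn2 (0.35, 0.039 to 0.65) and Ankrd1 (0.46, 0.0035 to 0.92). The adjusted p of each was 1.0, which does not show that the compounds act alike. A83-01 was given at 1 µM and the other ALK5 inhibitors at 0.1 µM, so their values stand side by side only.

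**Figure D4:**
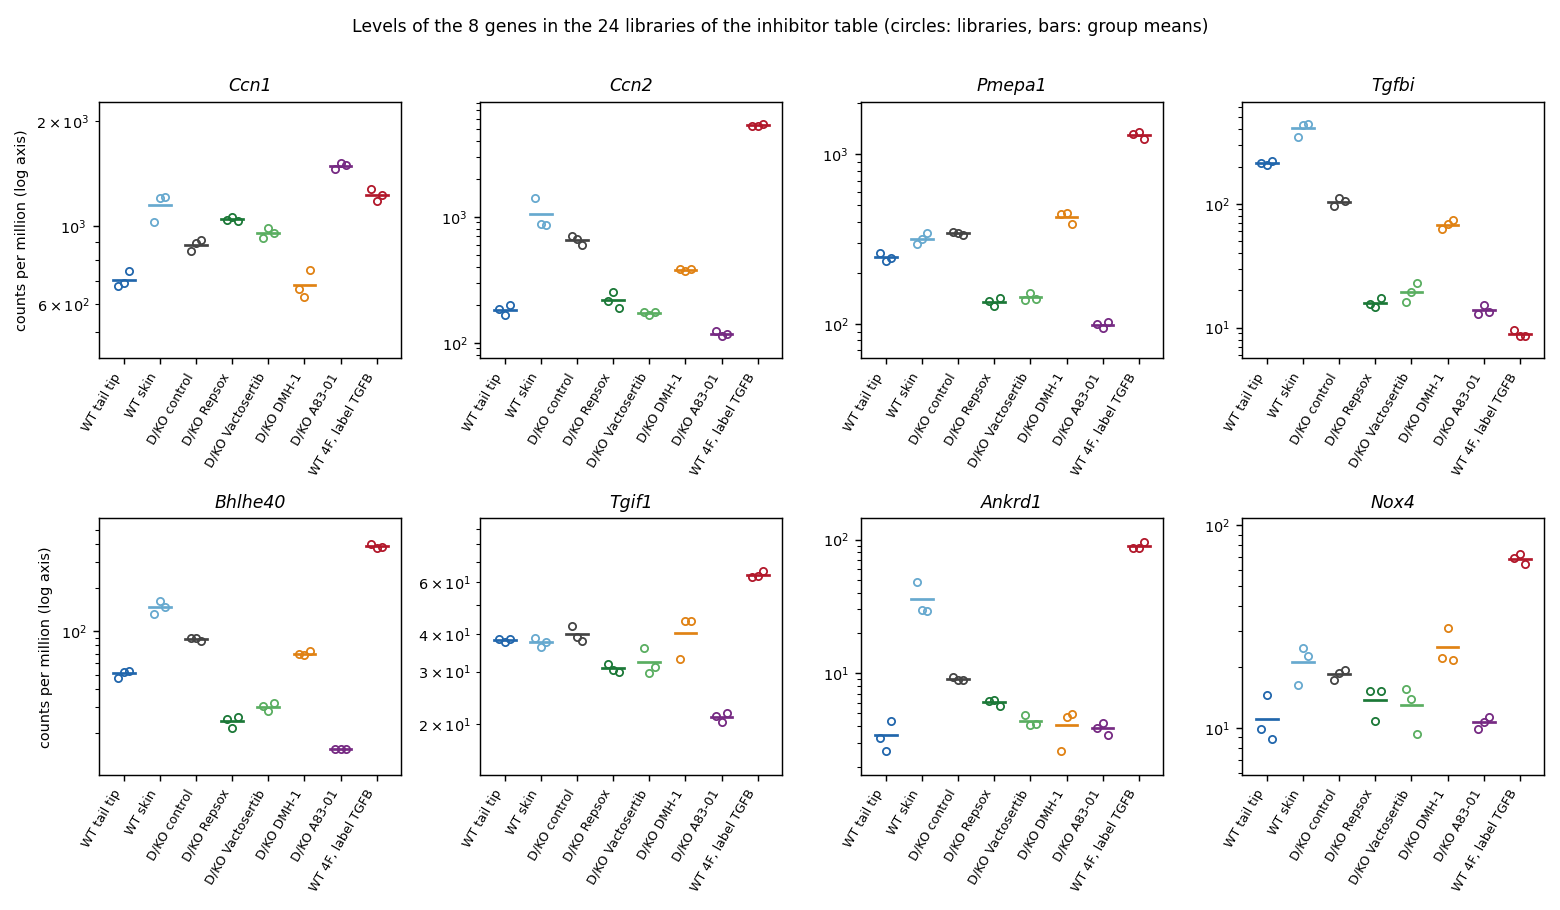
Level of each of the 8 genes (y axis, CPM on a log axis) in the 8 groups of the inhibitor table (x axis), with a circle per library and a bar at the mean of 3. Tgfbi, Bhlhe40, Ccn2 and Pmepa1 lay below control D/KO cells with Repsox, Vactosertib and A83-01, Ccn1 lay highest with A83-01 (1460 to 1517 CPM), and 6 genes had their highest levels in the libraries labelled TGFB.

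Control cells of the inhibitor table gave the levels without any compound. Against control WT tail tip cells, control D/KO cells had more Ccn2, Ankrd1, Bhlhe40, Nox4, Pmepa1 and Ccn1 and less Tgfbi, 7 of 8 members (34.6% of all genes). Ccn2 was 599 to 701 CPM in control D/KO and 166 to 198 in control WT cells (log2 fold change 1.84 ± 0.15, adjusted p = 4.46e-09, edgeR), whereas in the other D/KO and WT lines, at day 0 of reprogramming, Ccn2 overlapped (log2 fold change 0.22 ± 0.17, adjusted p = 0.318). Tgfbi was 96.8 to 112 CPM against 205 to 222 (log2 fold change -1.03 ± 0.12, adjusted p = 9.63e-07). The Nox4 call (0.72 ± 0.21) was lost without WT tail tip replicate 1 or 3 (0.58 to 0.65, adjusted p 0.0514 to 0.0675) and the Ccn1 call (0.33 ± 0.09) without the filter on low counts (adjusted p = 0.0766). Endothelial markers summed to 372 to 411 CPM in control D/KO and 84.3 to 102 in control WT tail tip cells and keratinocyte markers to 4.26 to 6.55 and 16.4 to 19.2, and their part in the result was not tested. WT skin cells had more of 7 members than WT tail tip cells, all but Tgif1 (34.2% of all genes): Ankrd1 read 47.9, 29.7 and 29.3 CPM against 3.24, 2.60 and 4.41 (log2 fold change 3.38 ± 0.23, adjusted p = 3.46e-10), and Ccn2 1414, 872 and 867 against 184, 166 and 198 (log2 fold change 2.53 ± 0.16, adjusted p = 9.91e-11). Skin replicate 1 was the highest of its group in both genes, and Ccn2 remained called without it (2.25). When only the skin and tail tip libraries entered the fit, the calls of Pmepa1 (0.37, adjusted p = 0.14) and Nox4 (0.94, adjusted p = 0.0514) were lost. In skin cells muscle markers summed to 88.9 to 98.3 CPM and endothelial markers to 229 to 299, against 10.8 to 11.6 and 84.3 to 102 in tail tip cells, all 5 muscle markers tested were higher (median log2 fold change 4.36), and the part of these in the result was not tested. Without the filter the skin call of Pmepa1 was lost as well (0.35, adjusted p = 0.0592).

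The libraries labelled TGFB had the highest levels of 6 members in the inhibitor table. The share of all genes with their highest level there was not counted. Against WT tail tip cells all 8 members were called, 7 higher and 1 lower (62.2% of all genes), and against WT skin cells 6 were higher and 1 lower (55.4%). The median log2 fold change of the 8 was 2.51 and 1.36, beside a median of all genes of -0.11 and -0.10, and subtracting the latter changed no direction. The 3 libraries read 5239, 5293 and 5445 CPM of Ccn2, above the highest of the other 21 libraries (1414 in skin replicate 1), with a log2 fold change against tail tip of 4.87 ± 0.17 (adjusted p = 1.41e-15, edgeR). Ankrd1 read 87.0, 86.5 and 95.8 CPM (4.72 ± 0.24), Bhlhe40 399, 376 and 378 (2.91 ± 0.095) and Nox4 68.6, 72.0 and 64.4 (2.62 ± 0.22). These groups of 3 lay clear of all other libraries of the table. Pmepa1 read 1317, 1357 and 1234 CPM (2.40 ± 0.092), Tgif1 62.2, 62.6 and 65.2 (0.73 ± 0.10) and Ccn1 1279, 1185 and 1231 (0.81 ± 0.091). Of these only Ccn1 was not the highest of its table, being below A83-01, and it did not differ from skin by the test (log2 fold change 0.10 ± 0.09, adjusted p = 0.359).

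Tgfbi, the gene named for TGFb induction, was the exception: it read 9.61, 8.57 and 8.48 CPM in the libraries labelled TGFB, the lowest of the 24, against 214, 205 and 222 in WT tail tip cells (log2 fold change -4.59 ± 0.14, adjusted p = 1.99e-16, edgeR) and 344, 436 and 444 in WT skin cells (-5.52 ± 0.15). The fibroblast marker Pdgfra read 14.6 to 18.6 CPM there against 1116 to 1459 in WT tail tip cells, Dcn 16.7 to 22.2 against 1690 to 1807, Lum 8.43 to 10.8 against 91.5 to 105 and Col6a1 363 to 389 against 3753 to 4652. Vim (5778 to 6959 against 3172 to 4066 CPM) and Col5a1 (8139 to 8909 against 4677 to 5540) lay higher, Pdgfrb (491 to 508 against 306 to 443) also did, Thy1 (489.5 to 529 against 703 to 801) lay lower, and Fbn1 and Twist2 overlapped. Keratinocyte markers summed to 133 to 138 CPM and 16.4 to 19.2 in WT tail tip cells, endothelial markers to 3.00 to 4.40 and 84.3 to 102, immune markers to 20.9 to 24.9 and 7.95 to 9.47, muscle markers to 24.5 to 29.3 and 10.8 to 11.6, and melanocyte and Schwann markers to 1.32 to 2.67 and 5.85 to 6.82, and their part in the result was not tested. No untreated library of the same line is in that table, so the label, the line, the transgene and age cannot be told apart. The same line at day 0 of the other table, normalized separately, had 414 to 548 CPM of Ccn2, 3.38 to 4.58 of Ankrd1, 40.8 to 51.9 of Bhlhe40 and 50.9 to 57.5 of Tgfbi, given here side by side without a test.

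**Figure D5:**
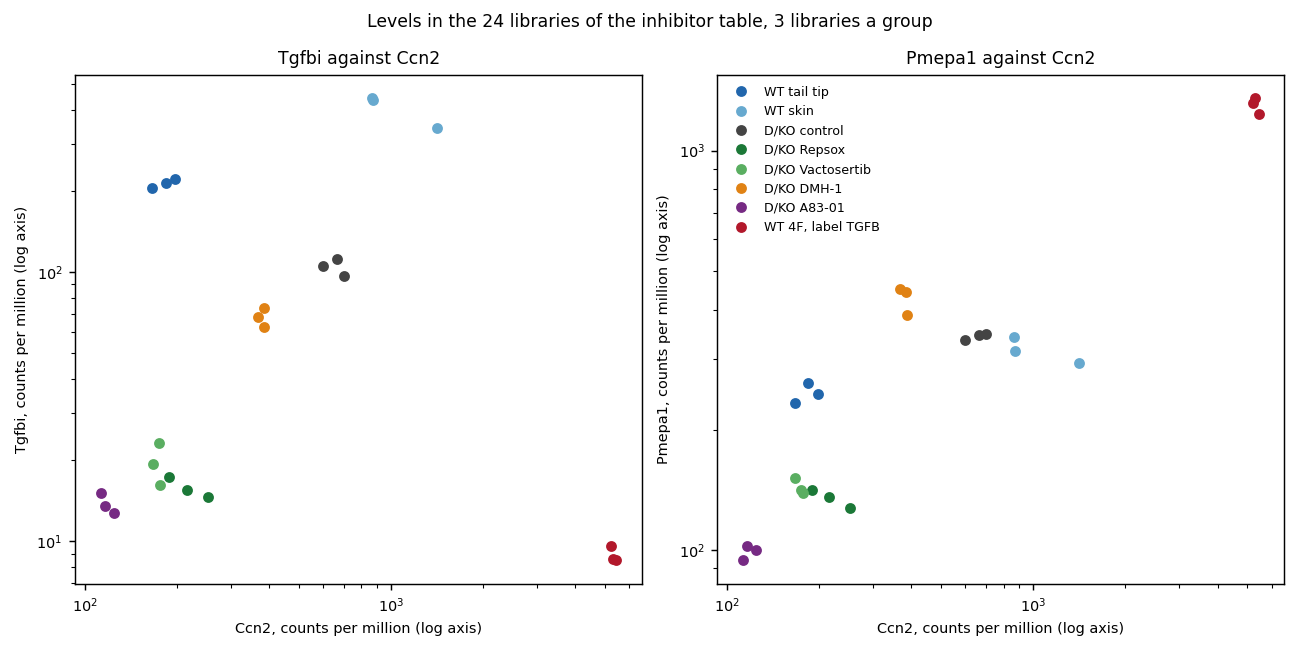
Tgfbi (left) and Pmepa1 (right) against Ccn2 in the 24 libraries of the inhibitor table, all in CPM on log axes, with a point per library and a colour per group. The 3 libraries labelled TGFB lie at the highest Ccn2 (5239 to 5445 CPM) with the lowest Tgfbi (8.48 to 9.61) and the highest Pmepa1 (1235 to 1357).

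How far the members moved together differed between the tables. Over the 24 inhibitor libraries, 21 of the 28 pairs had a positive Pearson r of log2 CPM, with a median of 0.71, and over the 36 reprogramming libraries 16 pairs had one, with a median of 0.14. These points share groups and libraries, so the values are a description. Ccn2 and Bhlhe40 are the pair that turned most: r was 0.95 over the 24 libraries and -0.60 over the 36, where Bhlhe40 rose while Ccn2 fell. Ccn2 and Pmepa1 were alike in both (0.91 and 0.65). Ccn2 and Tgfbi had r = -0.018 over the 24 libraries and 0.71 over the 21 without the TGFB label. Ccn1 had a negative r over those 21 libraries with all other members but Ankrd1 (0.29), the lowest with Tgif1 (-0.77).

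Outside the set, genes among the most similar in pattern over the 36 reprogramming libraries were Epha1 (r = 0.911) and Basp1 (0.901) for Ccn2, Arsi (0.919) and Ppp1r3b (0.918) for Tgfbi, Pdgfc (0.928) and Slc41a3 (0.918) for Pmepa1, and Srebf2 (0.919) for Bhlhe40. For Ankrd1 they were Pdia5 (0.921) and Kdelr3 (0.918), for Nox4 Sema6d (0.902) and Stab1 (0.902), for Ccn1 Fgfr2 (0.863) and Cpq (0.843), and for Tgif1, with the weakest likeness, Mgat4a (0.742) and Crtac1 (0.734). Over the 24 inhibitor libraries the likeness of Basp1 to Ccn2 (0.931) and of Arsi to Tgfbi (0.89) was as high, while Slc41a3 went against Pmepa1 (-0.637) and Srebf2 had no relation to Bhlhe40 (0.0014).

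Set beside 25 other TGFb targets, the 8 members were not alone. Of the 25, 20 fell and 1 rose at D/KO day 4 plus VC and 18 fell and 1 rose at WT day 4 plus VC, with a median log2 fold change of -1.58 and -0.84, beside 54.1% and 44.7% of all genes called in either direction. The smooth muscle gene Cnn1 fell (log2 fold change -4.52 ± 0.33 and -4.55 ± 0.33), as did the matrix gene Postn in D/KO cells (-4.70 ± 0.22), whereas Skil, a SMAD corepressor, rose (0.71 ± 0.17 and 0.51 ± 0.18, log2 fold change). With Repsox 12 of the 25 fell and 2 rose (20.7% of all genes called), with Vactosertib 13 and 2 (18.1%), with A83-01 17 and 3 (27.5%), and with DMH-1 9 fell and none rose (7.25%). Skil was among the largest falls with A83-01 (-2.67 ± 0.15, adjusted p = 3.25e-11, edgeR) and Cnn1 with DMH-1 (-1.90 ± 0.18). In the libraries labelled TGFB, 17 of the 25 were higher and 4 lower than in WT tail tip cells (62.2% of all genes), with Il11, a cytokine of the IL-6 family, among the higher (5.33 ± 0.29), while Col3a1 (-3.22 ± 0.19) and Postn (-1.63 ± 0.17) were lower.

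Of 19 other YAP targets, 10 fell and 5 rose at D/KO day 4 plus VC (median -0.53) and 6 fell and 3 rose at WT day 4 plus VC (median 0.015), beside 54.1% and 44.7% of all genes called in either direction, so that the WT count lay near the background. F3, the tissue factor gene, fell in both (-3.67 ± 0.23 and -1.33 ± 0.20) and Nt5e, which encodes the surface enzyme CD73, rose in both (1.63 ± 0.17 and 1.77 ± 0.18). With A83-01 7 fell and 5 rose (median 0.051, 27.5% of all genes called), with Ccdc80 lower (-2.49 ± 0.16) and Fjx1 higher (1.76 ± 0.15), and in the libraries labelled TGFB 12 were higher and 3 lower than in WT tail tip cells (62.2% of all genes called). The TEAD gene Tead4 rose at D/KO day 4 plus VC (3.88 ± 0.28) and WT day 4 plus VC (3.13 ± 0.31) while Tead3 fell (-1.45 ± 0.11 and -0.53 ± 0.11), and of 10 Hippo pathway genes 4 rose and 1 fell in D/KO cells and 3 rose and 1 fell in WT cells, near the same background. Among 9 genes for TGFb ligands, receptors and SMADs, 5 fell and 1 rose at D/KO day 4 plus VC, near the 54.1% of all genes called, with Tgfb3 (-3.17 ± 0.11) the lowest and Tgfb2 (1.13 ± 0.14) the 1 that rose. With A83-01 (27.5% of all genes called) 2 of the 9 fell, the ligand Tgfb1 (-1.28 ± 0.10) and the receptor Tgfbr1 (-1.01 ± 0.17), and 2 rose, the ligands Tgfb2 (0.64 ± 0.19) and Tgfb3 (0.40 ± 0.14). In the libraries labelled TGFB 4 were higher and 2 lower than in WT tail tip cells, near the 62.2% of all genes called, with Tgfb1 higher (2.75 ± 0.11) and Tgfbr3 lower (-6.34 ± 0.20). Of 10 BMP targets, read by the other branch of SMADs, 9 rose and none fell with each of Repsox (20.7% of all genes called), Vactosertib (18.1%) and A83-01 (27.5%), led by Id4 (2.97 ± 0.15 with A83-01), and with DMH-1 1 rose and 1 fell (7.25%). During reprogramming 6 rose and none fell at D/KO day 4 (37.0% of all genes called), and 5 rose and 3 fell at D/KO day 4 plus VC (54.1%). None rose and 2 fell at WT day 4 (24.5%), and 2 rose and 2 fell at WT day 4 plus VC (44.7%), so that the WT counts lay near the background.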

How the data were processed

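RNA was sequenced in 60 libraries of mouse tail tip or skin fibroblasts, 20 groups of 3. The authors trimmed paired reads of 150 bases with Trim Galore, aligned them with HISAT2 to GRCm39 and deposited raw featureCounts read counts per gene, with gene coordinates and summed exon length, in 2 tables; tool versions, annotation release and strand setting are not given in the sources used here. Reads without molecular identifiers are not independent molecules, so depth bears on counting error only. Doses of inhibitors come from the study's description.

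Gene symbols were matched through GENCODE M39 (56236 of 56980 identifiers, 98.7%). Each table was fitted separately with edgeR 4.0.16 in R 4.3.3: filterByExpr (minimum count 10, minimum total 15), TMM factors (0.773 to 1.10 and 0.846 to 1.12), 1 coefficient per group over all groups, and two-sided quasi-likelihood F-tests with Benjamini-Hochberg adjustment within each of 33 comparisons, called under 0.05. The SE is the log2 fold change divided by the square root of F. The common biological coefficient of variation was 0.132 in the reprogramming and 0.195 in the inhibitor table. Replicate variance was 3.25 to 60.3 times counting noise over 36 pairs of replicates and 4.26 to 397.0 times over 24 pairs, so no library was a copy of another of its group. The fit was tested on simulated data. Likeness is Pearson r of log2 CPM (prior count 2).

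The named genes are the 8 members, the 2 genes most like each, and from each list (other TGFb targets, other YAP targets, TGFb machinery, Hippo machinery, BMP targets) the 2 largest rises and falls among those called, of which some are printed, and some of these and 1 promoter window are not reported here; marker lists (fibroblast, keratinocyte, endothelial, immune, muscle, melanocyte and Schwann) are given as sums. Members and lists were chosen with earlier results of these data known. Alternatives were DESeq2 1.42.0, its size factors, other filters, other sets of libraries, another baseline, centring and leaving out each library.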

Additional observations from a re-analysis of the deposited data

Results flagged for a closer look

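For 14 results the change of D/KO cells minus the change of WT cells under the same treatment passed the test of the difference itself (edgeR, adjusted p under 0.05), where genotype, line, sex and age cannot be told apart. Tgfbi differed in all 4 comparisons, by -1.24 on the log2 scale at day 2 (adjusted p = 7.63e-08), -1.45 at day 2 plus VC (adjusted p = 1.14e-09), -1.96 at day 4 (adjusted p = 7.86e-13) and -2.65 at day 4 plus VC (adjusted p = 1.08e-15). Pmepa1 differed by -0.43 at day 2 (adjusted p = 0.0306), -0.81 at day 2 plus VC (adjusted p = 1.54e-05) and -0.75 at day 4 plus VC (adjusted p = 1.92e-05). Ccn2 differed by -1.02 at day 2 (adjusted p = 0.00722) and -1.24 at day 4 plus VC (adjusted p = 0.000237), and Ccn1 by -0.98 at day 4 plus VC (adjusted p = 0.0012). Nox4 differed by -0.67 at day 4 (adjusted p = 0.0219) and -0.93 at day 4 plus VC (adjusted p = 0.000698). Bhlhe40 rose more in D/KO cells at day 4 plus VC (0.90, adjusted p = 0.000577), and the change of Tgif1 was higher in D/KO cells at day 4 (0.63, adjusted p = 0.0283). Differences plus VC rest on day 0 plus VC, and VC alone had moved Bhlhe40 at day 0 by -0.34 in D/KO and 0.50 in WT cells. From day 0 without VC to day 4 plus VC, mean Bhlhe40 went from 79.4 to 143 CPM in D/KO and 45.3 to 78.1 in WT cells. Mean Ccn1 went from 828 to 794 CPM in D/KO and 1160 to 1477 in WT cells. The difference between lines on that baseline was not tested.

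Of these, 3 were lost when single libraries were left out. Pmepa1 at day 2 was lost in 7 of 12 such fits, without D/KO day 0 replicate 3, any D/KO day 2 library, WT day 0 replicate 1 or 3 or WT day 2 replicate 2 (-0.44 to -0.37, adjusted p 0.0589 to 0.0943). Tgif1 at day 4 was lost without D/KO day 0 or day 4 replicate 1, WT day 0 replicate 3 or WT day 4 replicate 1 (0.46 to 0.60, adjusted p 0.0626 to 0.107), and Nox4 at day 4 without D/KO day 0 or day 4 replicate 2, WT day 0 replicate 1 or 2 or WT day 4 replicate 2 (-0.63 to -0.57, adjusted p 0.0574 to 0.0748). Without the filter on low counts Pmepa1 at day 2 (adjusted p = 0.144) and Nox4 at day 4 (adjusted p = 0.0891) were lost too, and with only the compared groups Pmepa1 at day 2 (adjusted p = 0.0596).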

How the results depend on the processing

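Of 264 log2 fold changes (8 genes in 33 comparisons), 258 kept their side of the threshold, and their direction where called, with DESeq2, 263 with its size factors, 244 without the filter, 243 with only the compared groups in the fit, 238 of 241 with at least 10 counts in every library, and 53 of 56 with the 18 inhibitor libraries. With each library left out in turn, 1848 of 1968 did and no called value changed direction. Against day 0 without VC, 22 of 32 did, and 3 reversed: in D/KO cells at day 2 plus VC, Ccn1 (0.41, adjusted p = 0.0371) and Tgfbi (0.34, adjusted p = 0.00422), and in WT cells at day 2 plus VC, Pmepa1 (0.43, adjusted p = 0.000234), where 5 members were then called in place of 3. Centring on the median of all genes moved 8 values, all in the comparisons of the libraries labelled TGFB. At WT day 4 against day 2, 3 members were called without the filter and 2 with only the compared groups, in place of 1. For the WT change with VC minus without at day 2, 2 were called by DESeq2 and 1 without the filter, in place of 0, and with DMH-1, 3 without the filter in place of 6. The cause was not tested.

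Leaving out 1 library gave 4 to 6 members called at D/KO day 2 and day 2 plus VC, 7 to 8 at D/KO day 4 plus VC, 2 to 3 at WT day 2, 3 to 4 at WT day 4 plus VC, 2 to 4 at D/KO day 4 against day 2 and 4 to 6 (in place of 7) at the same comparison plus VC. It gave 1 to 2 and 2 to 3 in those 2 WT comparisons. For VC at day 0 in D/KO cells it gave 4 to 6, for the change with VC minus without 2 to 4 and 3 to 4 in D/KO cells and 0 to 1 and 3 to 4 in WT cells at days 2 and 4, for D/KO minus WT changes 2 to 3 at day 2, day 2 plus VC and day 4, and for D/KO against WT at day 0, 5 to 7. It gave 4 to 5 with Repsox, 5 to 6 with Vactosertib, 3 to 6 with DMH-1 and 6 to 7 between control D/KO and WT cells. The counts at D/KO day 4 (6), WT day 4 (4), WT day 2 plus VC (3), WT VC at day 0 (5), D/KO minus WT at day 4 plus VC (6), A83-01 (8), A83-01 against DMH-1 (7), Repsox against Vactosertib (0), skin against tail tip (7) and the TGFB label (8 and 7) were the same in every such fit.

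Over all genes, fitting only the compared groups gave 6400 calls in place of 3880 at WT day 4, 2523 in place of 4140 for VC at D/KO day 0, 2813 in place of 4252 and 3754 in place of 2427 for the D/KO and WT change with VC minus without at day 4, 4317 in place of 2828 with Vactosertib, 1910 in place of 1135 with DMH-1 and 2591 in place of 5348 for skin against tail tip. Without WT day 2 replicate 2, WT day 4 against day 2 had 1103 calls in place of 3406 (2123 to 2252 without a day 4 library), and WT day 2 had 1067 in place of 1672 (1110 without day 0 replicate 1). There were 970 in place of 1515 at D/KO day 4 against day 2 without day 4 replicate 1, 1731 in place of 3176 for WT plus VC without day 2 plus VC replicate 1, and 619 to 714 with DMH-1 without any 1 control library or DMH-1 replicate 2. No paired analysis was possible because the labels give running numbers that tie no library to one of another group. Ankrd1, with as few as 6 counts in a library, is the member that depth limits most.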
